A study of Mus musculus with 20 samples.

Results

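The genes described here are 9 transcription factors known from the brainstem and spinal cord, namely Isl1, Pax2, Lhx1, Lhx5, Zic1, En1, Gata3, Irx2 and Tfap2b. They were listed by name as regional factors outside the Hox family, and all 9 were found among the 55487 genes of the count table by matching gene identifiers to symbols. The study sequenced RNA of subcerebral projection neurons, the cortical cells with axons that descend to the brainstem and spinal cord, in mice at postnatal day 1. Somata came from cortex, and growth cones, the motile tips of growing axons, came from brainstem and spinal cord. Both compartments were taken from wild-type (WT) mice and from mice labelled KO for Bcl11b, a zinc finger transcription factor of these neurons, which gives 4 groups of 5 libraries. Libraries are named here by the experiment number in their labels. The null allele, any Cre or reporter line, the method of isolating growth cones and somata, and whether animals were pooled are not given in the sources used here. No label says that the libraries of a group came from separate animals, so p-values measure the spread between these libraries, which may be technical.

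Neurons of the brainstem and spinal cord arise from progenitor domains stacked along the dorsal to ventral axis, and each domain gives rise to classes of neurons that carry their own combination of homeodomain and other transcription factors. Isl1, Lhx1 and Lhx5 are LIM-homeodomain factors, Pax2 and En1 mark classes of inhibitory interneurons, Gata3 marks V2b interneurons, and Zic1, Irx2 and Tfap2b are regional factors of the dorsal neural tube and hindbrain. Cortical projection neurons are specified by a different set, which includes Fezf2, Bcl11b and Sox5. Several of the 9 also have known forebrain sites, such as the striatum for Isl1, Cajal-Retzius cells for Lhx5 and the septum and meninges for Zic1.

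Library totals ranged from 26382991 to 29323028 counts in WT growth cones, from 21657575 to 27723067 in growth cones labelled KO, from 18962308 to 36059112 in WT somata and from 35243688 to 51205154 in somata labelled KO. Bcl11b itself stood at 108 ± 20.1 CPM (SD, n = 5), where CPM are counts scaled to 1000000 per library, in WT growth cones and 108 ± 35.3 CPM in growth cones labelled KO. It stood at 655 ± 122 CPM in WT somata and 1082 ± 53.6 CPM in somata labelled KO, which goes against the label. The part of Bcl11b that was deleted is not given in the sources used here, so a count over the whole gene may include sequence outside it. The summed level of 8 markers of subcerebral projection neurons was 701 to 885 CPM in WT growth cones and 1698 to 1991 CPM in WT somata. Growth cones and somata differ in compartment, in the tissue they were taken from and in experiment number, as no number is shared. These cannot be told apart in any comparison between them. In bulk libraries, fewer cells of a type and less RNA per cell cannot be told apart either.

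The regions upstream of 4 members are shown as examples. For these 4, every WT growth cone library was above every WT soma library. That also held for Pax2, Lhx1 and Gata3, which are not shown, and it did not hold for Isl1 in the libraries labelled KO. RefSeq (build GRCm38.p6) lists promoter windows for 8 of the 9 members, Lhx5 not among them. The windows are the 250 bases before the annotated start. Only the printed sequences are cut where an exon of the count table begins. Capitals mark CCAAT, or ATTGG where it lies on the opposite strand, and each sequence reads 5′ to 3′ along its gene. Isl1 lies on chr13:116309690-116309938 (minus strand), Zic1 on chr9:91365811-91366018 (minus strand), Irx2 on chr13:72628570-72628819 (plus strand) and Tfap2b on chr1:19211804-19212053 (plus strand).
Isl1: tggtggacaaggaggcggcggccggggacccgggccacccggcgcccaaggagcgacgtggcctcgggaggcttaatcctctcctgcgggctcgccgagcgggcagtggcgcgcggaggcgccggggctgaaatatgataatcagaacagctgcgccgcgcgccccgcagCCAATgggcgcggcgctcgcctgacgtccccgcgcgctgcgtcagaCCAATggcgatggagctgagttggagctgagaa
Zic1: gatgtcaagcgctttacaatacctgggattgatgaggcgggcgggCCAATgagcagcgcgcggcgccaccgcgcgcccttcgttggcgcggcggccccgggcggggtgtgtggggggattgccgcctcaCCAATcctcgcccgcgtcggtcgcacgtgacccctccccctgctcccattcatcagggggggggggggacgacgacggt
Irx2: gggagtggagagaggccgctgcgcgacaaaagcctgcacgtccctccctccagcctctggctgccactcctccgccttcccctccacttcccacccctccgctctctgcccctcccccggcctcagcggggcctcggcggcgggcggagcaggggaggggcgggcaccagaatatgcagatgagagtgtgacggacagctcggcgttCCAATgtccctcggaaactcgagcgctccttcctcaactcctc
Tfap2b: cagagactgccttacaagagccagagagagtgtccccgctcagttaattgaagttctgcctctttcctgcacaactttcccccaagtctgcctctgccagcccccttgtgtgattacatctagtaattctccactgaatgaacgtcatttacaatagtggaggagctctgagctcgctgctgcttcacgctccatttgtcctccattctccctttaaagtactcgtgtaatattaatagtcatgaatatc
The motif counts, GC content and CpG ratios that follow are over the uncut windows of 250 bases. CCAAT was found on either strand in the windows of 5 members, namely Isl1, Zic1, Irx2, Lhx1 and En1. For Lhx1 it lies in the part that the cut removes. Over all 32851 windows of 250 bases in the RefSeq table, 33.8% hold it. TATAAA, searched on both strands, was found in 0 of the 10 member windows and in 12.4% of all windows. The member windows had a median GC content of 65.4%, against 52.4% over all windows. The CpG observed over expected ratio was 0.821 for the median member window and 0.374 for the median of all. The Tfap2b window, at 46.4% GC, lay below the median of all windows, and it sits inside the longer Tfap2b gene model of the count table.

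In WT mice the growth cone libraries held RNA of all 9 factors and the somata held few counts of any of them other than Isl1. All 5 WT growth cone libraries were above all 5 WT soma libraries for 7 of the 9 members, where 13.9% of the 27375 genes with a count showed that pattern. Lhx5 and En1 were the exceptions. The 9 were chosen with earlier results of these data known, so the share that separated is a description and no support of its own. Isl1 was the only member with more than 3 counts in more than 1 WT soma library. Of the 6 members that passed the low-count filter, 6 were higher in growth cones by edgeR's quasi-likelihood test at a false discovery rate of 0.05, against 23.1% of the 15128 genes tested. All 6 would pass the filter on their growth cone counts alone, so the share called is no support of its own. Pax2, En1 and Gata3 were under the filter and were compared by an exact permutation test, two-sided, on log2(CPM + 0.5), for which the smallest p that 5 against 5 libraries allow is 0.00794.

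**Figure D1:**
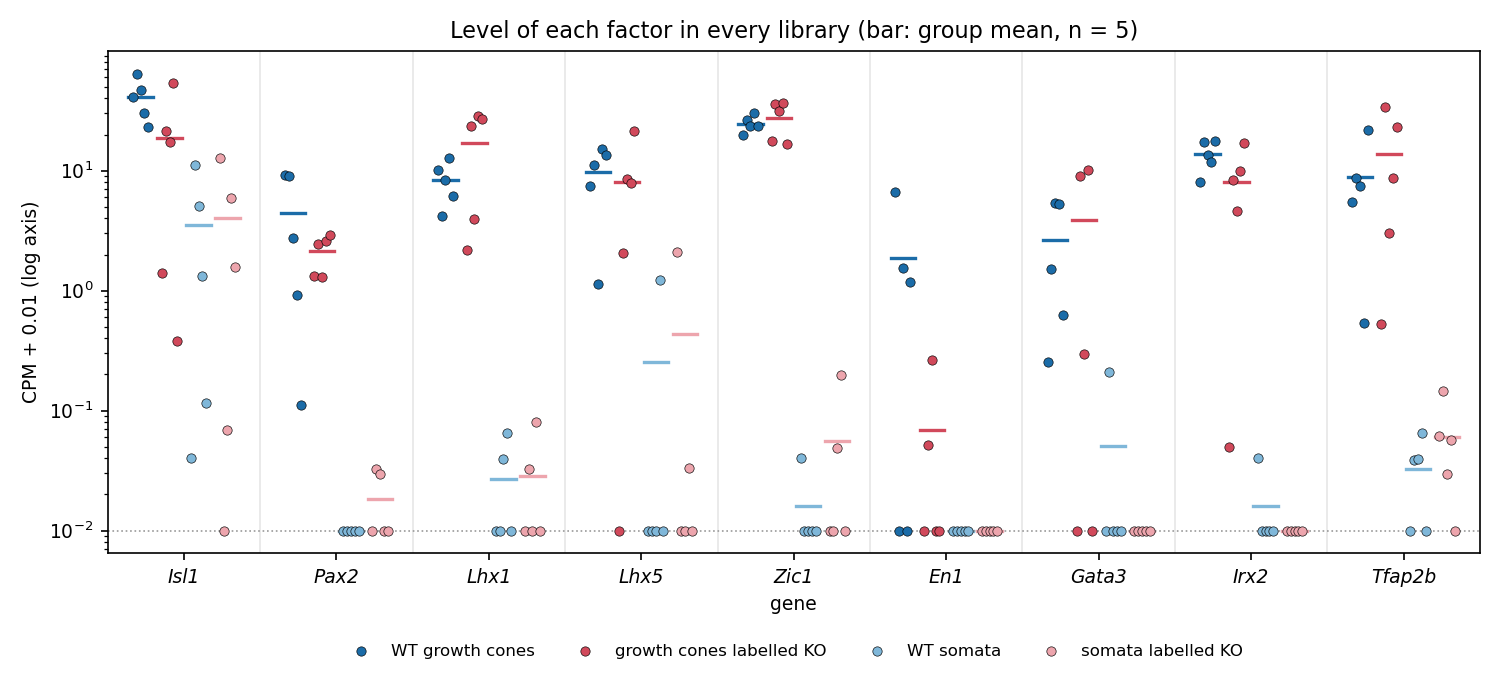
Level of each of the 9 factors in every library, as CPM + 0.01 on a log axis, with 1 point per library and a bar at each group mean (n = 5). Points on the dotted line have 0 counts. Zic1 sits between 16.7 and 36.6 CPM in all 10 growth cone libraries and at or below 0.188 CPM in all 10 soma libraries, while Isl1 reaches 11.1 and 12.6 CPM in single soma libraries.

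Isl1 is a LIM-homeodomain factor needed for motor neurons and present in several dorsal and sensory classes. Its gene (ENSMUSG00000042258.13) lies on chr13:116298281-116309689, minus strand, in the coordinates of the count table, which are those of GRCm38. WT growth cones of experiments 7 to 11 held 1165, 1767, 1331, 797 and 676 counts of Isl1. WT somata of experiments 12, 14, 22, 25 and 26 held 1, 385, 172, 47 and 2. Every WT growth cone library was above every WT soma library, and the somata spread widely among themselves. The means were 41.2 ± 16.0 CPM and 3.51 ± 4.70 CPM (SD, n = 5 each), with a log2 fold change of 3.43 ± 1.11 (SE; edgeR adjusted p = 0.0251). The call was lost without WT soma library 25 (3.31, edgeR adjusted p = 0.0527) and in 1 fit of all 20 libraries (3.39, adjusted p = 0.0742). Without WT soma library 14 the log2 fold change was 4.48.

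The Isl1 counts of the somata fell in particular libraries. In somata labelled KO, experiments 14, 15, 22, 25 and 26 stood at 12.6, 0, 0.0586, 5.93 and 1.56 CPM. The library of experiment 14 was the highest of its group in both genotypes, at 11.1 CPM in WT and 12.6 CPM in the group labelled KO. The 4 genes of glycinergic and GABAergic neurons summed to 24.6 CPM in WT soma library 14, the highest of the 10 somata, and to 10.02 CPM in the library labelled KO of that number, the second highest of its group. Their part in the Isl1 values was not tested. Isl1 made up 85.4% to 98.9% of the summed CPM of the 9 factors in WT somata 14 and 22 and in somata labelled KO 14 and 25. In soma library 26 Isl1 made up 100% in both genotypes, from 2 counts in WT and 55 counts in the group labelled KO. In WT soma library 25 its share was 49.5%, and the rest was nearly all Lhx5.

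Lhx1 and Lhx5, a pair of related LIM-homeodomain factors, are known for keeping the inhibitory identity of dorsal horn neurons together with Pax2. Lhx1 (ENSMUSG00000018698.15; chr11:84518284-84525535, minus strand) held 289, 115, 234, 336 and 181 counts in WT growth cones 7 to 11. WT somata held 3 counts in all, 1 in library 22 and 2 in library 25. The Lhx1 groups were far apart, with a growth cone mean of 8.31 ± 3.34 CPM. The ratio of pooled counts per total was 432, with an exact 95% interval of 148 to 2099 that covers counting error only. The log2 fold change was 8.38 ± 1.14 (SE; edgeR adjusted p = 0.000113), or 9.31 without WT soma library 25.

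Lhx5 (ENSMUSG00000029595.9; chr5:120431699-120441223, plus strand) held 213, 306, 32, 400 and 395 counts in WT growth cones 7 to 11. In WT somata it held 44 counts in library 25 and 0 in the other four. That single soma library lay above the lowest growth cone library on the CPM scale, so the groups overlapped. The means were 9.68 ± 5.58 CPM and 0.244 ± 0.546 CPM, a log2 fold change of 5.10 ± 1.74 (SE; edgeR adjusted p = 0.0320). Lhx5 passed the threshold in 10 of the 18 fits tried, with adjusted p from 0.000924 to 0.0655. It missed it without WT growth cone library 10 (adjusted p = 0.0545) or 11 (0.0505), and without WT soma library 12 (0.0513), 14 (0.0571), 22 (0.0590) or 26 (0.0655). Without WT soma library 25 the log2 fold change was 11.10.

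Pax2 is a paired-box factor of inhibitory interneurons and of the boundary between midbrain and hindbrain, where En1 is also found. Pax2 (ENSMUSG00000004231.15; chr19:44756045-44837871, plus strand) held 261, 248, 77, 24 and 3 counts in WT growth cones 7 to 11. It held 0 counts in all 5 WT somata, so the growth cone mean of 4.39 ± 4.41 CPM was at least 43.4-fold higher, counting from 3 counts per soma library. All 5 growth cone libraries were above all somata, library 11 only by its 3 counts (exact permutation p = 0.00794). En1, the engrailed homeobox factor that marks V1 interneurons (ENSMUSG00000058665.8; chr1:120602418-120607992, plus strand), held 189, 0, 43, 0 and 34 counts in the same libraries. En1 was at 0 in all 10 somata, where 3 counts per library allow up to 0.101 CPM on average in WT and 0.0718 CPM in the group labelled KO. With 3 of 5 WT growth cone libraries above 0, the En1 groups overlapped (exact permutation p = 0.167).

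Zic1 and Irx2 had the steadiest levels of the 9 factors in WT growth cones. Zic1, a zinc finger factor of the dorsal neural tube and cerebellar anlage (ENSMUSG00000032368.14; chr9:91358058-91365810, minus strand), held 567, 725, 668, 793 and 685 counts in WT growth cones 7 to 11. WT somata held 1 count of Zic1 in all, in library 12. The growth cone mean was 24.7 ± 3.78 CPM, and the ratio of pooled counts per total was 3859 (exact 95% counting interval 692 to 152476). The log2 fold change was 11.07 ± 0.85 (SE; edgeR adjusted p = 1.69e-06), or 12.46 without WT soma library 12.

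Irx2, an Iroquois homeobox factor of hindbrain patterning (ENSMUSG00000001504.10; chr13:72628820-72634198, plus strand), held 228, 479, 378, 312 and 522 counts in WT growth cones 7 to 11. The only Irx2 count of the WT somata was 1, again in library 12. The growth cone mean was 13.7 ± 4.09 CPM and the ratio of pooled counts per total was 2154 (exact 95% counting interval 386 to 85127). The log2 fold change was 10.24 ± 1.05 (SE; edgeR adjusted p = 1.29e-05), or 11.63 without WT soma library 12.

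Gata3 is a zinc finger factor of V2b interneurons and of serotonergic neurons. Gata3 (ENSMUSG00000015619.10; chr2:9857078-9890034, minus strand) held 7, 41, 153, 140 and 18 counts in WT growth cones 7 to 11, and 7 counts in WT soma library 14 with 0 in the other four. Library 7 of the growth cones stood only just above that soma library, at 0.246 CPM against 0.202 CPM. The means were 2.62 ± 2.55 CPM and 0.0403 ± 0.0901 CPM (exact permutation p = 0.00794). Tfap2b is an AP-2 factor of dorsal hindbrain, noradrenergic and cerebellar inhibitory neurons. Tfap2b (ENSMUSG00000025927.13; chr1:19208914-19238576, plus strand) held 154, 239, 212, 14 and 637 counts in WT growth cones 7 to 11 and 0, 1, 1, 2 and 0 in WT somata 12, 14, 22, 25 and 26. The growth cone libraries spread from 0.531 to 21.7 CPM and still lay above every soma library. The ratio of pooled counts per total was 352 (exact 95% counting interval 137 to 1296), and the log2 fold change was 8.16 ± 1.30 (SE; edgeR adjusted p = 0.000337), or 7.50 without WT growth cone library 11.

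In mice labelled KO, fewer of the 9 factors separated the compartments completely. All 5 growth cone libraries were above all 5 somata for 5 of the 9, namely Pax2, Lhx1, Zic1, Irx2 and Tfap2b, where 12.2% of 28166 genes showed that pattern. As in WT, that share is only a description of a list chosen with earlier results known. Isl1, Lhx5 and Gata3 each had 3 growth cone libraries above every soma library, and En1 had 2. By edgeR, 4 of the 6 members tested were higher in growth cones, against 21.6% of 15410 genes. None of the 6 would have passed the filter on its soma counts alone, so this share is no support of its own either. The log2 fold changes of these 4 were 9.43 ± 1.37 for Lhx1 (edgeR adjusted p = 0.000244), 8.999 ± 1.17 for Zic1 (0.000115), 7.85 ± 1.39 for Tfap2b (0.000912) and 7.28 ± 0.95 for Pax2 (0.000119). Irx2, under the filter, was at 0 in all somata labelled KO and at least 111-fold higher in growth cones (exact permutation p = 0.00794), although growth cone library 7 held 1 count. Without soma library 25 of the group labelled KO the log2 fold change was 10.72 for Zic1 and 10.64 for Lhx1. That of Tfap2b was 8.56 without soma library 15 and 7.25 without growth cone library 8.

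The remaining members did not pass in the libraries labelled KO. Isl1 had a log2 fold change of 2.07 ± 1.56 (SE; edgeR adjusted p = 0.326), with a 95% interval from -1.34 to 5.47. Lhx5 had one of 4.18 ± 2.08 (edgeR adjusted p = 0.136). The soma library of experiment 14 held 82 of the 83 Lhx5 counts of its group, and without it Lhx5 passed (9.61, edgeR adjusted p = 0.00641). Gata3 was at 0 in every soma library and in growth cone libraries 7 and 11 (exact permutation p = 0.167). En1 had 8 counts in all in the growth cones labelled KO (exact permutation p = 0.444).

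**Figure D2:**
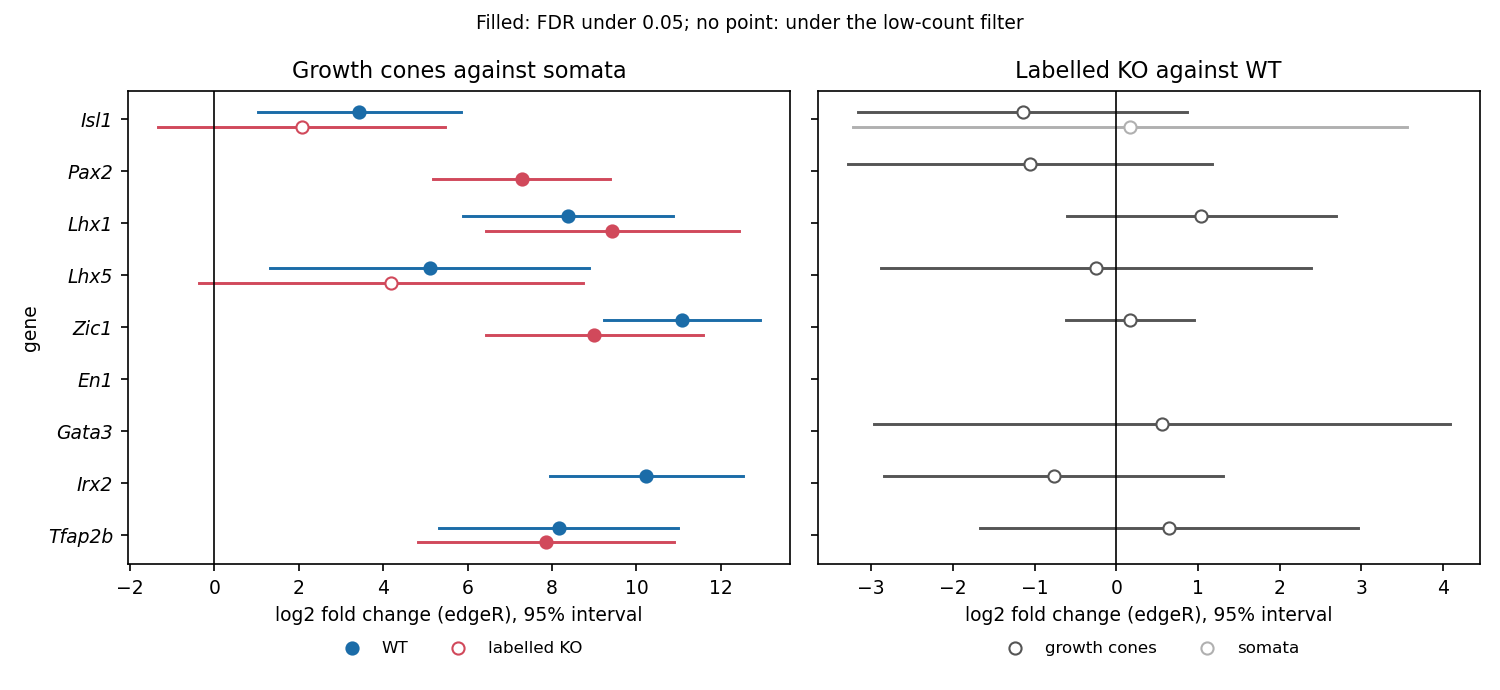
Log2 fold changes of the 9 factors by edgeR, growth cones against somata in each genotype (left) and labelled KO against WT in each compartment (right). Bars are 95% intervals derived from the edgeR F statistic. Filled points passed the false discovery rate of 0.05, and members without a point were under the low-count filter. All 6 WT intervals on the left lie above 0, and all intervals on the right cross 0.

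Between growth cones of the 2 genotypes, none of the 9 factors passed the test, and the intervals were wide for all but Zic1. The libraries of the 2 genotypes overlapped for all 9, and 0.344% of 26781 genes with a count showed no overlap. Of 8 members tested by edgeR, 0 were called, 0 had an unadjusted p under 0.05, and 0 were called by DESeq2 or limma-voom. With limma-voom, only Isl1 was under that threshold before adjustment, at a log2 difference, labelled KO over WT, of -2.33. Over all 15419 genes tested, edgeR called 0.0% and DESeq2 called 11 genes. Zic1 held 440, 868, 877, 987 and 361 counts in growth cones labelled KO 7 to 11, a mean of 27.6 ± 9.82 CPM against 24.7 ± 3.78 CPM in WT. Its log2 difference, labelled KO over WT, was 0.17 with a 95% interval from -0.61 to 0.95, the narrowest of the 8. For Lhx1 the difference was 1.04 (-0.61 to 2.69), for Tfap2b 0.65 (-1.66 to 2.96) and for Gata3 0.56 (-2.97 to 4.08). For Lhx5 it was -0.25 (-2.89 to 2.38), for Irx2 -0.77 (-2.84 to 1.30), for Pax2 -1.06 (-3.29 to 1.17) and for Isl1 -1.15 (-3.16 to 0.87). The intervals of Tfap2b, Gata3, Lhx5, Irx2 and Pax2 reached past 1 log2 unit in both directions, that of Lhx1 only upward and that of Isl1 only downward. The estimates moved with single libraries of the group labelled KO. Isl1 was at -2.03 without library 10, Lhx5 at -1.07 without library 11 and 0.07 without library 7, and Irx2 at -1.29 without library 11 and -0.45 without library 7. Gata3 was at -0.19 without library 10 and -0.01 without library 8, and Tfap2b at 0.03 without library 8. WT libraries did the same, with Gata3 at 1.01 without library 9, Tfap2b at 1.31 without library 11 and Pax2 at -0.59 without library 7. The direction of the Gata3, Lhx5 and Pax2 differences thus turned under at least 1 of the fits tried, Pax2 only with limma-voom (0.11).

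The values behind these intervals show libraries of the group labelled KO that stand far apart. Isl1 held 35, 521, 483, 1448 and 8 counts in growth cones labelled KO 7 to 11, so libraries 7, 8, 9 and 11 lay below every WT library on the CPM scale and library 10 lay within the WT range. Libraries 7 and 11 were the extremes, at 1.39 and 0.369 CPM. Irx2 held 1, 201, 127, 269 and 370 counts, and Lhx5 held 0, 50, 236, 212 and 465. Both were at or under 1 count in library 7 alone. Lhx1 held 54, 576, 109, 769 and 583 counts, with libraries 8, 10 and 11 above every WT library and libraries 7 and 9 below every WT library. Tfap2b held 13, 824, 83, 232 and 504 counts, and Gata3 held 0, 219, 8, 272 and 0. Pax2 went the other way, with 33, 59, 36, 70 and 63 counts, a narrower spread than its 3 to 261 counts in WT. En1 held 0, 1, 7, 0 and 0 counts, against a WT mean of 1.87 ± 2.76 CPM, and the difference was within the spread (exact permutation p = 0.167).

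In somata, only Isl1 passed the filter between genotypes, and its log2 difference was 0.17 with a 95% interval from -3.22 to 3.56 (edgeR adjusted p = 0.997). That difference turned to -0.90 without soma library 14 of the group labelled KO. Isl1 was thus 0 of 1 members called, by edgeR, DESeq2 and limma-voom, with 0 at an unadjusted p under 0.05, where 0.731% of 14911 genes were called by edgeR. All 9 overlapped, and 1.82% of 27214 genes with a soma count showed no overlap. The exact permutation p of the 7 other members with any soma count ranged from 0.357 to 1. Most of these soma levels were at or under 3 counts per library, so differences between genotypes were not detectable at this depth. The change of the compartment difference with genotype was fitted over all 20 libraries. There, 0 of 8 members were called by edgeR, DESeq2 or limma-voom and 0 had an unadjusted p under 0.05, against 0.0397% of 17645 genes called by edgeR. The lowest adjusted p was that of Pax2, 0.725, with an interaction of -2.86 (95% interval -5.80 to 0.08). A smaller compartment difference in the libraries labelled KO was thus not shown for any of the 9.

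**Figure D3:**
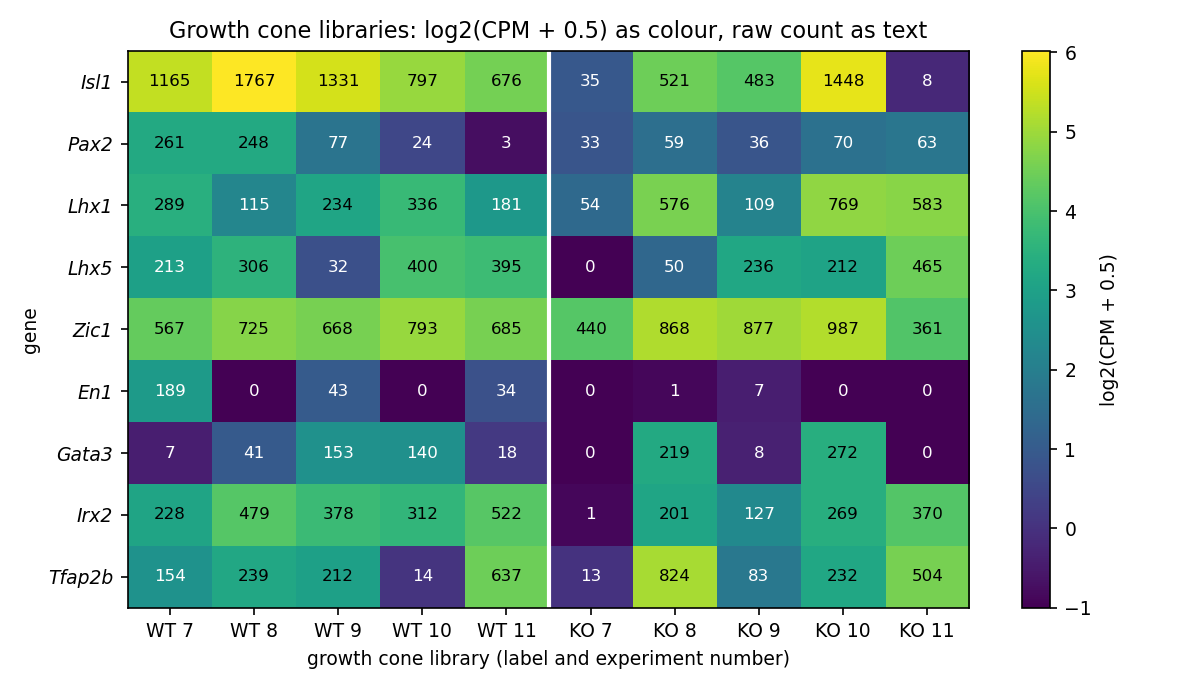
Growth cone libraries in columns (WT 7 to 11, then the group labelled KO 7 to 11) and the 9 factors in rows, with log2(CPM + 0.5) as colour and the raw count as text. The highest library differs from gene to gene, and library 7 of the group labelled KO is low for most genes but holds 440 counts of Zic1.

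Per kilobase of exon (RPKM, from library totals), Isl1 was the most abundant of the 9 factors in WT growth cones. Its level of 10.4 ± 4.04 RPKM exceeded that of Zic1, 4.34 ± 0.664 RPKM, by more than the larger SD. Below it the order was Irx2 (4.17), Lhx5 (3.60), Lhx1 (2.04), Tfap2b (1.38), Pax2 (0.812), En1 (0.711) and Gata3 (0.657 RPKM), and no 2 neighbours in that order differed by more than the larger SD. In growth cones labelled KO, Zic1 led at 4.86 ± 1.72 RPKM, followed by Isl1 (4.77), Lhx1 (4.19), Lhx5 (2.97), Irx2 (2.44), Tfap2b (2.19), Gata3 (0.976), Pax2 (0.3902) and En1 (0.0224 RPKM). There, only the gap between Pax2 and En1 exceeded the larger SD of its neighbours. In somata Isl1 averaged 0.888 ± 1.19 RPKM in WT and 1.02 ± 1.36 RPKM in the group labelled KO, and the highest of the other eight was Lhx5, at 0.0908 and 0.158 RPKM.

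The sum over the 9 factors was similar among WT growth cones although single members varied. It came to 108, 143, 111, 107 and 107 CPM in WT growth cones 7 to 11. In growth cones labelled KO it came to 22.9, 137, 70.9, 158 and 109 CPM, with library 7 far below the rest. That library held more than 3 counts of 5 of the 9 factors, and was the lowest of the 10 growth cones for Lhx1, Lhx5, Irx2 and Tfap2b. Growth cone library 10 of the group labelled KO was the highest within that group for Isl1, Lhx1, Zic1 and Gata3 at once. Without growth cone library 7 of that group, 5 of 7 members tested were called higher than in somata labelled KO. This gain was not particular to library 7. The count was also 5 of 7 without soma library 15, 22, 25 or 26 labelled KO, and 6 of 7 without soma library 14.

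Spread between WT growth cone libraries, as SD over mean of CPM, ran from 0.153 for Zic1 and 0.298 for Irx2 to 1.48 for En1. Sampling of the Zic1 counts alone would give 0.0381. Among 10493 genes at 1 to 50 CPM on average in growth cones, 1.52% had a smaller spread than Zic1 and 12.3% a smaller one than Irx2. For Isl1 that share was 22.8%, for Lhx1 24.3% and for Lhx5 44.7%. The other members lay toward the upper end, with 74.0% for Tfap2b, 78.4% for Gata3, 80.0% for Pax2 and 95.03% for En1. En1 itself, at 0.963 CPM on average in growth cones, lies just below the range of the genes it is ranked against. The median over the 9 was 0.576 in WT and 1.03 in the group labelled KO, against 0.622 and 0.676 for the genes at 1 to 50 CPM. A growth cone library with 3 counts or fewer occurred for 5 of the 9 factors and for 36.5% of those genes.

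**Figure D4:**
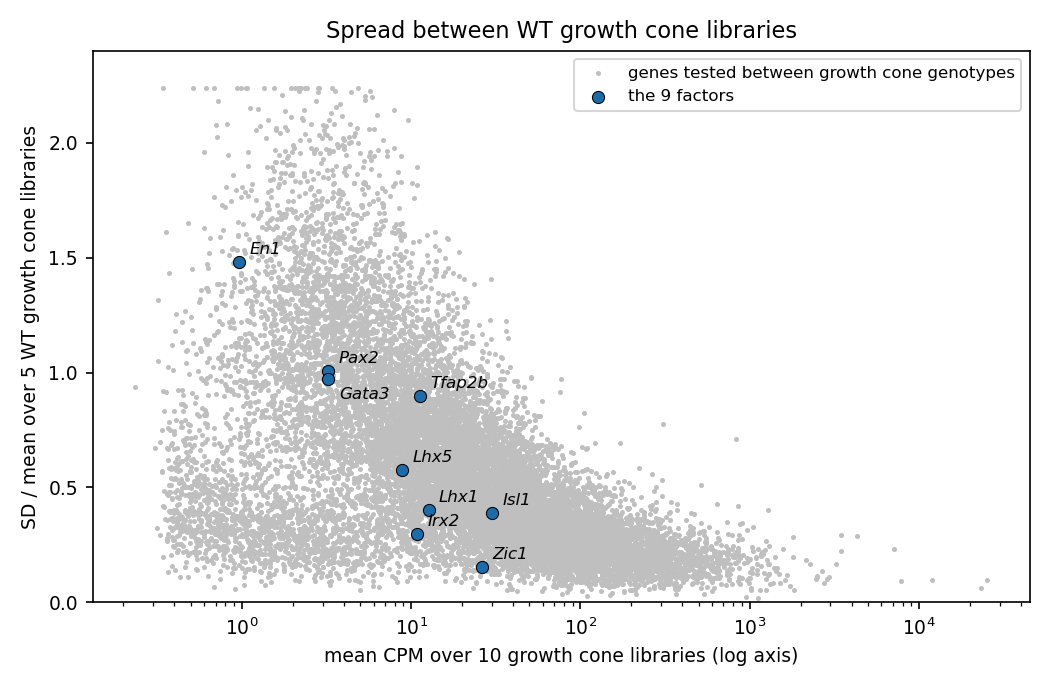
SD over mean across the 5 WT growth cone libraries against mean CPM over the 10 growth cone libraries (log axis), for all genes tested between growth cone genotypes (grey) and the 9 factors (blue). Zic1, at 0.153, lies near the lower edge of the genes of its level, and En1, at 1.48, lies high.

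The genes whose pattern over the 10 growth cone libraries was most like the mean pattern of the 9 factors were Mettl17 (Pearson r = 0.985), Xrn1 (0.971), Castor2 (0.955), Gja4 (0.951) and Sort1 (0.9499). They are the highest of 11787 genes at 5 CPM or more in growth cones, so these values are a description with no test. The mean pattern, in log2 units around each factor's own mean, was -2.16 in library 7 of the group labelled KO and between -0.47 and 0.73 in the other nine. Over the 9 libraries without library 7, r was 0.913 for Mettl17, 0.840 for Xrn1, 0.747 for Castor2, 0.755 for Gja4 and 0.682 for Sort1, and only Mettl17 was still among the 5 highest. The 10 libraries differ in depth and RNA input, and of the 5 genes only Gja4, a gap junction gene of vessels, was several-fold lower in somata (2.97 against 15.7 CPM in WT).

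Related genes from the same regional programs were then counted. As for the 9 factors, most of the paralogs, class factors and transmitter genes tested passed the low-count filter only with the help of growth cone libraries, so their shares and medians were set in part by the filter and are given as a description. Over all genes tested, 23.1% were higher in WT growth cones and 21.6% in those labelled KO. Of 30 paralogs of the 9 factors, 7 were tested between WT growth cones and somata, and 6 were higher and 0 lower in growth cones, with a median log2 fold change of 6.65, against 0.07 over all genes. Somata alone would not have passed 5 of the 7. They included Lhx9, a LIM factor of dorsal commissural neurons (log2 fold change 9.33 ± 0.67, edgeR adjusted p = 1.09e-06), Lhx8 (8.91 ± 1.35) and Lhx2 (2.57 ± 0.32). Lhx8 is known mainly from the basal forebrain. Among the paralogs, Isl2, the motor neuron partner of Isl1, was at 0 in every WT growth cone library and reached 38 counts in 1 library labelled KO. In the libraries labelled KO, 7 of 8 paralogs tested were higher in growth cones and 0 lower.

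Of 24 factors of ventral spinal and motor classes, 5 of 8 tested were higher in WT growth cones and 0 lower, with a median log2 fold change of 3.56. Somata alone would not have passed 6 of the 8. The examples were Nkx2-2 (6.29 ± 1.33, edgeR adjusted p = 0.00247), Sox21 (4.02 ± 0.97) and Olig2 (3.68 ± 0.92), also a factor of the oligodendrocyte lineage. The motor neuron factor Mnx1 was at 0 in every WT growth cone library and reached 66 counts in growth cones labelled KO. Of 21 names listed as dorsal spinal and hindbrain factors, 20 were found in the count table. Among these, 5 of 5 tested were higher, with a median of 9.28, and somata alone would have passed none of the 5. They included Prrxl1, a factor of dorsal horn sensory relay neurons (10.94 ± 1.33, edgeR adjusted p = 4.92e-05), Gbx2 (9.75 ± 1.14), Pou4f1 (9.28 ± 1.17) and Sall3 (4.601 ± 1.20). In the libraries labelled KO, 6 of 8 ventral and 5 of 5 dorsal factors tested were higher. Between genotypes, 0 of the 38 genes of these 3 lists that were tested in growth cones, and 0 of the 7 tested in somata, were called by edgeR, DESeq2 or limma-voom, with 0 and 1 at an unadjusted p under 0.05 by edgeR.

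Transmitter genes of local neurons were high in growth cones as well. Of 12, 5 of 8 tested were higher in WT growth cones and 0 lower, with a median log2 fold change of 3.70. Somata alone would not have passed 6 of the 8. They were the glycine transporter gene Slc6a5 (9.56 ± 1.22, edgeR adjusted p = 6.94e-05), the GABA synthesis genes Gad1 (5.12 ± 0.75) and Gad2 (3.44 ± 0.52), the glutamate transporter gene Slc17a6 (3.97 ± 0.58) and Slc32a1. Cholinergic and motor genes did not share 1 pattern. Chat, the acetylcholine synthesis gene, was at 0 in every WT growth cone library and reached 8 counts in growth cones labelled KO. Slc18a3, the vesicular acetylcholine transporter gene, held 17 to 458 counts in WT growth cones and 1 to 101 in WT somata (1.64 ± 1.07, edgeR adjusted p = 0.239), and it was higher in growth cones in the libraries labelled KO (4.48 ± 1.55, edgeR adjusted p = 0.0384). Prph, an intermediate filament gene of motor and sensory neurons, was higher in growth cones in WT (2.23 ± 0.35, edgeR adjusted p = 0.000301) and in the libraries labelled KO (3.77 ± 0.63, edgeR adjusted p = 0.000634). Of the 12 cortical projection neuron factors, 5 were lower in WT growth cones and 3 higher, with a median of -0.45. The lower ones included Mef2c (-3.43 ± 0.26), Sox5 (-3.23 ± 0.32), Bcl11b (-2.75 ± 0.18, edgeR adjusted p = 6.02e-07) and Fezf2 (-1.53 ± 0.15), and the higher ones included Emx1 and Bcl11a. In somata, 3 of these 12 were higher in the group labelled KO by edgeR, namely Bcl11b (0.71 ± 0.12), Bcl11a (0.60 ± 0.09) and Neurod6 (0.50 ± 0.10).

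Markers of other cells moved with the 9 factors between the compartments. The 19 Hox genes of hindbrain and spinal cord summed to 122 to 238 CPM in WT growth cones and 0.105 to 0.272 CPM in WT somata, where 0 of the 19 exceeded 3 counts in any library. The 4 glycinergic and GABAergic genes summed to 227 to 330 and 4.77 to 24.6 CPM. The 6 choroid plexus and ependyma genes summed to 276 to 428 and 0.176 to 0.749 CPM, with Folr1, Kcnj13, Clic6 and Otx2 at or under 3 counts in every WT soma library. All 6 were above 3 counts in a WT growth cone library.

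The same held for glia, vessels and meninges. The 7 astrocyte markers summed to 530 to 642 CPM in WT growth cones and 7.16 to 150 CPM in WT somata, and the 8 oligodendrocyte markers to 494 to 2205 and 57.7 to 97.6 CPM. The 7 vessel and blood markers summed to 263 to 510 and 2.90 to 20.1 CPM, and the 8 meningeal markers to medians of 218 and 7.86 CPM. The 7 cerebellar granule markers summed to 102 to 186 and 21.6 to 35.0 CPM, with Gabra6 at or under 3 counts in every growth cone library. Microglial markers overlapped, at 44.2 to 78.2 and 3.29 to 85.2 CPM over 7 genes. The 10 motor and monoaminergic markers summed to 40.3 to 82.9 and 10.001 to 15.1 CPM, with 7 of the 10 above 3 counts in a WT growth cone library and Chat, Mnx1 and Fev at 0. In growth cones labelled KO 9 of the 10 were above 3 counts in a library, and Fev was at 0. The 6 nuclear-retained RNAs summed to 506 to 886 CPM in WT growth cones and 237 to 755 CPM in WT somata. The part of these cells and RNAs in the levels of the 9 factors was not tested.

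Growth cone library 7 of the group labelled KO, the lowest for the 9 factors, also had the lowest Hox sum of the 10 growth cones, 88.0 CPM, and the lowest glycinergic and GABAergic sum, 122 CPM. Its choroid plexus and ependyma genes were not the lowest of its group. Growth cones labelled KO otherwise ranged up to 296 CPM for the Hox sum and 324 CPM for the glycinergic and GABAergic sum.

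**Figure D5:**
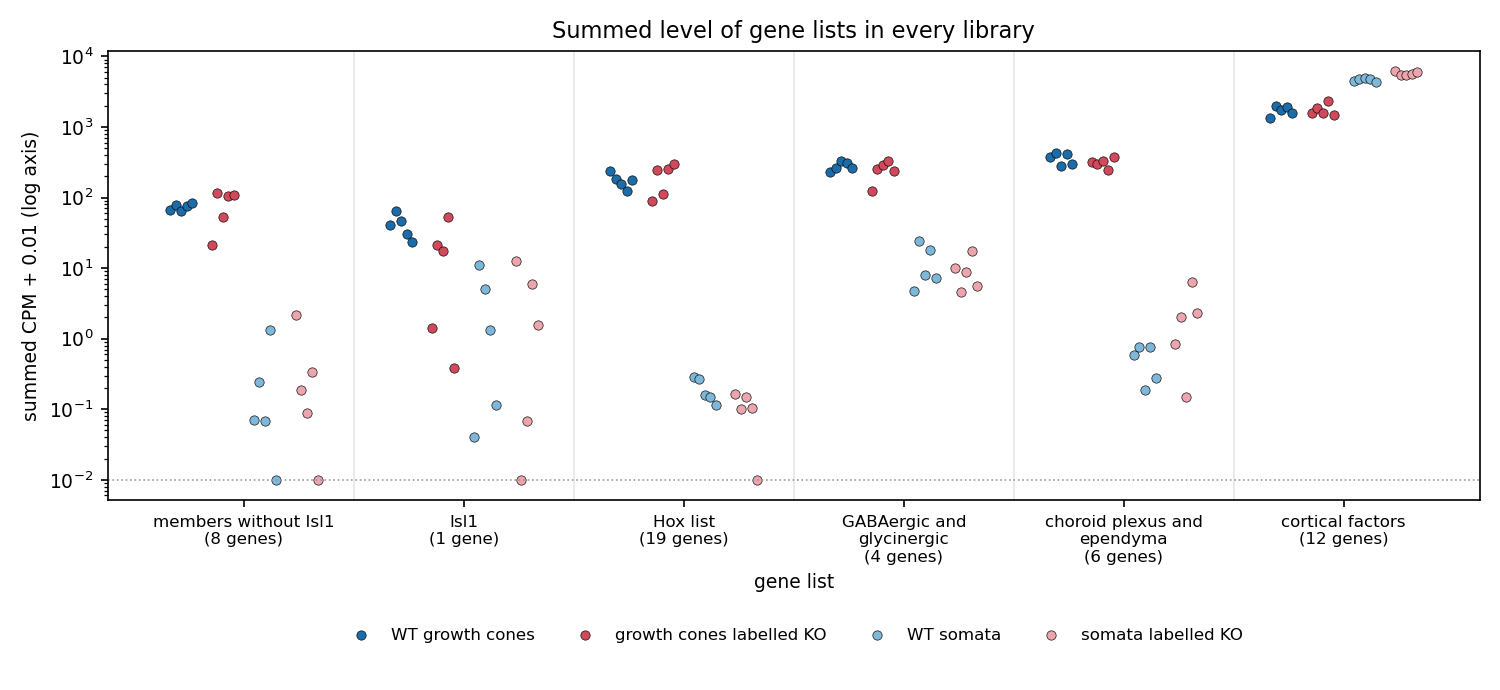
Summed CPM + 0.01 (log axis) in every library for the 8 factors without Isl1, Isl1 alone, the 19 Hox genes, the 4 glycinergic and GABAergic genes, the 6 choroid plexus and ependyma genes and the 12 cortical factors. The first 5 sets are lower in somata than in growth cones with overlap only for Isl1, and the cortical factors run from 1355 to 2362 CPM in growth cones and from 4269 to 6164 CPM in somata.

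Some members have overlapping or adjacent genes, and whether counting used the strand is not given in the sources used here. Lhx5 shares 69 exon bases, 2.57% of its exon length, with the antisense gene Gm27199, which held 39 to 761 counts in WT growth cones. Zic1 shares 60 exon bases, 1.05% of its exon length, with Zic4 on the opposite strand, which held 59 to 1872 counts in WT growth cones and 0 to 29 in WT somata. Reads of these shared bases cannot be told apart. Gata3 shares 155 bases with Gm13256 and 77 with 9230102O04Rik, and both of those were at 0 in all 20 libraries. Zic4 was itself higher in growth cones, with a log2 fold change of 6.65 ± 1.41 in WT (edgeR adjusted p = 0.00239) and 6.004 ± 1.403 in the group labelled KO (0.00528).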

How the data were processed

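RNA was isolated on Qiagen micro columns and amplified with SMART-seq v4 before Nextera XT library construction, per the labels' protocols, from 1.8 to 3.1 ng of soma RNA or 0.19 to 3.1 ng of growth cone RNA. The authors deposited 1 table of raw gene counts with an exon length per gene, and no scaling between libraries. Trimmomatic 0.39, STAR 2.7.1a and featureCounts 1.5.0 are named in the submitters' processing notes, with the genome build GRCm39. The exon coordinates in the table are nevertheless those of GRCm38, and 98.1% of the 55487 genes have exactly the exons of GENCODE mouse release 21, which supplied the symbols. All coordinates given are those of the table. Use of strand and treatment of reads mapping to several places are not given in the sources used here. Every column was matched to a sample by its title (0 left over), and 0 rows of the table name no gene.

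Differences were tested with edgeR 4.0.16 in R 4.3.3 (quasi-likelihood F test, TMM scaling, filterByExpr with a minimum count of 10, Benjamini-Hochberg over all genes tested at a false discovery rate of 0.05). Only the 2 groups compared entered a fit, except that the interaction used all 20 libraries. Members under the filter were compared by exact two-sided permutation over 252 regroupings, unadjusted, in 14 tests. CPM and RPKM use library totals alone. A fold against a group at 0 is a bound against 3 counts per library. Reads carry no molecular identifiers, so such bounds and the exact intervals of ratios cover counting error only. The test was checked on simulated counts. For WT growth cones against somata it recovered 62 of 100 genes changed 2-fold and 100 of 100 changed 4-fold (15103 genes). For the growth cone genotypes it recovered 48 of 100 and 100 of 100 (15981 genes). The simulated spread between libraries was the same for every gene and smaller than the median that edgeR estimated in these data. That median biological coefficient of variation was 0.569 for WT growth cones against somata and 0.723 for the growth cone genotypes. The recovery counts thus overstate what the test would find here at the same fold.

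The 9 factors and the other gene lists were chosen with earlier results of these data known. All 9 are named. From each list of paralogs, ventral factors, dorsal factors, transmitter genes and cortical factors, up to 4 genes with the lowest p among those called in WT growth cones against somata are named, plus any called between genotypes; some of these are not reported here. Genes given for being at or near 0, and the neighbours of the members, were chosen after their values were seen. Alternatives were DESeq2 1.42.0, limma-voom 3.58.1, 3 other scalings, no filter, 1 fit of all 20 libraries, the experiment number as a block, and each library left out in turn.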

Additional observations from a re-analysis of the deposited data

Results flagged for a closer look

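Dixon's criterion (gap over range above 0.71) was applied to the 25 groups of 5 libraries in which a library held more than 3 counts of a member. In 6 of them the highest library stood apart from the others. Chance flags about 1 group in 20, but that rate does not hold for groups with most libraries at 0. For Lhx5 and Gata3 in WT somata the gap over range was 1 because every other library was at 0. Lhx5 stood at 1.22 CPM in WT soma library 25 and 2.11 CPM in soma library 14 of the group labelled KO, with at most 1 count in any other soma library. Zic1 stood at 0.188 CPM in soma library 25 of the group labelled KO. Gata3 stood at 0.202 CPM in WT soma library 14, its only soma library with a count. En1 stood at 6.65 CPM in WT growth cone library 7 and at 0.252 CPM in growth cone library 9 of the group labelled KO, where the latter is 7 counts.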

How the results depend on the processing

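The number of members called was within 1.5 times its main value, or stayed at 0, under every alternative run. Leaving out 1 library at a time gave 5 to 7 members called in WT growth cones against somata, 4 to 6 in the libraries labelled KO, and 0 to 0 between genotypes in growth cones, in somata and for the interaction. Of the fits of single members, 571 of 582 stayed on their side of the threshold, 10 fell short of it and 1 passed it, and those 11 are of Isl1 and Lhx5. The direction turned in 20 of the 582, none of them called: 6 of 144 fits between genotypes in growth cones (Gata3, Lhx5 and Pax2), 6 of 18 in somata (Isl1) and 8 of 216 for the interaction (Gata3, Irx2, Lhx5 and Tfap2b). No direction turned between the compartments. Without the low-count filter 8 of 9 members were called in WT (Lhx5 was not, adjusted p = 0.0519) and 6 of 9 in the libraries labelled KO. Another scaling or test changed no call of a member in WT or in the libraries labelled KO. Over all genes, WT growth cones against somata had a median log2 fold change of 0.07 with TMM, 0.28 with upper-quartile scaling, 0.22 with library totals and -0.17 with limma-voom, shifts far smaller than the members' fold changes. The likeness without growth cone library 7 of the group labelled KO was chosen after seeing the data. With the experiment number as a replicate block, 0 members were called between genotypes in growth cones, in somata and for the interaction, as without it, but in growth cones the difference moved to -2.47 for Isl1 and -2.34 for Gata3. Deviations of same-numbered libraries correlated at 0.03 to 0.11 over 5 pairs in growth cones, where 10 of 10 libraries correlated best with their own number. In somata they correlated at 0.03 to 0.15 over 4 pairs, with 7 of 8 best with their own number. Libraries of 1 experiment number thus shared a small part of their variation across genotypes. The main fits did not take the numbers as pairs and do not account for that part. No paired analysis was possible because growth cones and somata share no experiment number, for comparisons between the compartments. Depth limits the soma levels, most of which are at 0 to 3 counts, and the spread among 5 libraries per group limits the genotype intervals.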

Other observations

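The gene next to Lhx1 was far more abundant in growth cones than Lhx1 itself. Lhx1os is a long noncoding RNA gene on the opposite strand of chr11:84525660-84535831, 125 bases from Lhx1, with which it shares 0 exon bases, and it was picked out after its values were seen. It held 3356, 2534, 1672, 1273 and 2013 counts in WT growth cones 7 to 11, and 1813, 1967, 2027, 760 and 3065 in growth cones labelled KO. In WT somata it held 1 to 9 counts and in somata labelled KO 1 to 18. Per kilobase of exon its level was 111 ± 40.1 RPKM in WT growth cones and 114 ± 58.1 RPKM in growth cones labelled KO (SD, n = 5 each), where Lhx1 stood at 2.04 ± 0.820 and 4.19 ± 3.17 RPKM. Its log2 fold change over somata was 8.92 ± 0.51 in WT (SE; edgeR adjusted p = 2.43e-07) and 8.75 ± 0.80 in the libraries labelled KO (edgeR adjusted p = 8.54e-06). Between growth cones of the 2 genotypes its log2 difference was 0.06 ± 0.39 (edgeR adjusted p = 0.999).

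The levels of Lhx1os and Lhx1 did not go together in every growth cone library. Growth cone library 10 of the group labelled KO had the lowest Lhx1os count of the 10, 760, and the highest Lhx1 count, 769. Library 11 of that group had the highest Lhx1os level, 142 CPM, and an Lhx1 level of 26.9 CPM, above every WT growth cone library.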
